A study of Mus musculus with 4 samples.

Results

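The 7 genes described here are the mouse MHC class II genes Cd74, H2-Aa, H2-Ab1, H2-Eb1, H2-DMa, H2-DMb1 and Ciita, followed in alveolar type II (AT2) cells, the cuboidal lung cells that make surfactant, and in alveolar type I (AT1) cells, the flat cells of the gas exchange surface. They were chosen by name, and all 7 are among the 12509 genes listed for the AT2 library, of 14561 listed in the series. Of the 3 AT1 libraries, the one at postnatal day 3 (P3) lists all 7 as well, and those at P15 and P60 list 6, without Ciita.

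Single-cell RNA was sequenced from sorted mouse lung cells with a 10x 3' chemistry that counts transcripts by unique molecular identifiers (UMIs), in 4 libraries, 1 per group. Every mouse was of a mixed FVB and C57BL6 background and carried Sftpc-CreER, Rosa26-Zsgreen and Hopx-RFP, so that a Cre driven by the surfactant gene Sftpc and switched on by tamoxifen left a green mark. AT2 cells were sorted at P60 as green and CD45-negative cells, and AT1 cells at P3, P15 and P60 as RFP-positive, Pdpn-positive cells without green mark or CD45. CD45 is the product of Ptprc and marks blood-derived cells, so both gates remove most of the professional antigen-presenting cells. AT2 lungs were digested with neutral protease and DNase I, and AT1 lungs also with elastase and type I collagenase. The sources used here give neither the number of animals in a library nor the MHC haplotype of the mixed-background mice, and the part of both in the levels was not tested.

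MHC class II molecules are cell surface dimers that present peptides from endosomes to CD4+ T cells. The alpha and beta chains of I-A are the products of H2-Aa and H2-Ab1, and H2-Eb1 gives the beta chain of I-E. Cd74 is the invariant chain that holds the empty groove and escorts the dimer to the endosome, H2-DMa and H2-DMb1 form the DM dimer that exchanges its remnant for peptide, and Ciita is the co-activator that switches the family on. The Cd74 gene lies apart from the H2 genes, on another chromosome. The family is best known from dendritic cells, macrophages and B cells, and AT2 cells are known as epithelial cells that carry class II without an inflammatory stimulus.

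The 5 H2 genes lie within 197134 bases of chromosome 17 (mm10, GENCODE M21, all protein-coding). H2-DMa is at chr17:34119541-34139101, H2-DMb1 at chr17:34153072-34160230, H2-Ab1 at chr17:34257689-34269419, H2-Aa on the minus strand at chr17:34282744-34287823 and H2-Eb1 at chr17:34305867-34316674. Ciita is on chromosome 16, at chr16:10480059-10528418. Class II promoters are known for an X box, bound by the RFX complex, and a Y box further down, bound by NF-Y, which together recruit Ciita. The promoters of H2-Aa and H2-Eb1 are shown because both chains were high in AT2 cells and low in AT1 cells. Each line gives the 90 bases that run from 110 to 21 bases before the gene's start, 5′ to 3′ on the gene's strand (RefSeq, GRCm38.p6). The capitals mark a GNAAC, letters known from the X box, and an ATTGG, letters known from the Y box.
H2-Aa: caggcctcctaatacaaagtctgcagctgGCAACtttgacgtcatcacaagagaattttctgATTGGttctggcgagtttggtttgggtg
H2-Eb1: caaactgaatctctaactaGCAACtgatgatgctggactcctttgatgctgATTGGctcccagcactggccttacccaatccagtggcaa
The H2-Aa stretch is chr17:34287844-34287933 on the minus strand, with 28 bases between the marked letters, and the H2-Eb1 stretch is chr17:34305757-34305846 on the plus strand, with 27. H2-DMb1 holds the same pair with 28 bases between, its GNAAC 94 bases before the start, and the 2 H2-DMa entries hold none. Of the 7 genes 4 have a promoter entry and 3 of these hold the pair, defined as GNAAC followed by ATTGG after 20 to 35 bases, with no overlap, in the 250 bases before a start. Outside the 7, the class II genes H2-Oa, H2-Ob and H2-Eb2 hold the pair too, with 28, 25 and 27 bases between, and H2-DMb2 does not. H2-Oa and H2-Ob showed no UMI in the AT2 library, so the pair is not particular to class II genes found in AT2 cells. Among 32851 promoters, 79.6% held GNAAC on either strand, 33.8% held ATTGG, 2.25% held the pair on either strand and 1.15% held it on the gene's strand. The letters were chosen after the sequences had been seen, and a match is a description of the sequence and not a binding site.

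The AT2 library held 2093 cells and 10379705 UMIs, and the AT1 libraries held 3149, 2940 and 1337 cells at P3, P15 and P60 with 26536894, 15401939 and 7276458 UMIs. Clusters were made without the 7 genes and named by markers. AT2-like clusters took 1501 cells of the AT2 library (71.7%), and AT1-like clusters took 2852 (90.6%), 2671 (90.8%) and 1137 cells (85.0%) of the AT1 libraries in order of age. Median depth was 4902 UMIs in AT2-like cells, against 7294.5, 4934 and 5691 UMIs in the AT1-like cells at P3, then P15, then P60. Levels are given as CPM, the UMIs of a gene scaled to a fixed total over all listed genes, and because a 3' end is counted once per transcript, levels of different genes are compared without a length. Ranges in parentheses are exact 95% intervals, which cover counting error only, and with 1 library per group no test was possible. Between 3 and 15 cell barcodes were shared by any 2 libraries.

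AT2-like cells held all 7 class II genes, in a steep order that ran over nearly 3 powers of 10. Cd74, the invariant chain, came first at 4274 CPM (4228 to 4322). It was followed by the chains of I-A, H2-Aa at 968 CPM (946 to 991) and H2-Ab1 at 788 CPM (768 to 808), and by H2-Eb1 at 389 CPM (375 to 403). The DM genes were lower, with H2-DMb1 at 132 CPM (124 to 140) and H2-DMa at 74.9 CPM (68.8 to 81.3). Ciita was last at 5.61 CPM (4.04 to 7.58), from 42 UMIs in 41 cells. No 2 neighbours in this order had overlapping intervals. Together the 7 genes took 0.663% of the UMIs of AT2-like cells, of which Cd74 gave 64.5%, H2-Aa 14.6%, H2-Ab1 11.9%, H2-Eb1 5.87%, H2-DMb1 1.99% and H2-DMa 1.13%. The summed level was 6632 CPM in AT2-like cells, against 83.4, 201.8 and 136.5 CPM in the AT1-like cells at P3, then P15, then P60.

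**Figure D1:**
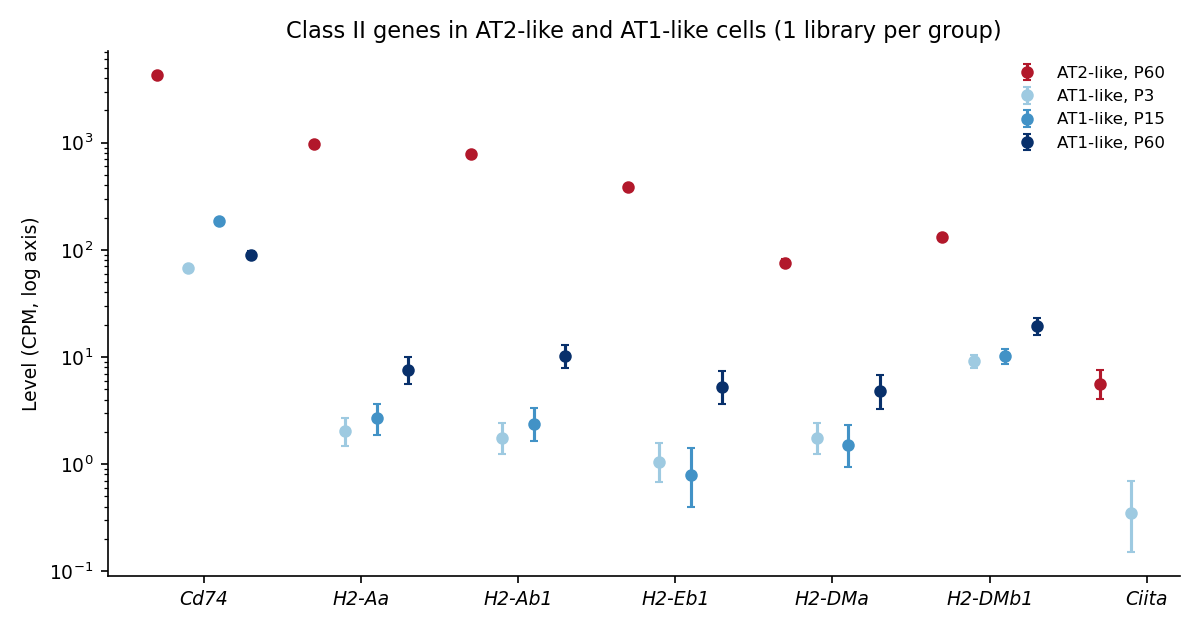
Level of each class II gene (CPM, log axis) in AT2-like cells at P60 and AT1-like cells of all 3 ages, with exact 95% Poisson intervals that cover counting error only. Cd74 reached 4274 CPM in AT2-like cells and 67.3 to 184 CPM in AT1-like cells, and Ciita was not listed at P15 and P60.

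In AT1-like cells Cd74 was again the highest of the 7, but its partners were close to the limit of detection. Cd74 stood at 67.3 CPM at P3, 184 CPM at P15 and 89.5 CPM at P60. H2-Aa stood at 2.02, 2.67 and 7.54 CPM at the same ages, H2-Ab1 at 1.76, 2.38 and 10.1 CPM, and H2-Eb1 at 1.05, 0.793 and 5.27 CPM, from 11 to 67 UMIs each. Of the DM genes, H2-DMa stood at 1.76, 1.51 and 4.82 CPM and H2-DMb1 at 9.13, 10.2 and 19.3 CPM, which placed H2-DMb1 above the I-A chains at every age. Ciita had 8 UMIs at P3 (0.351 CPM).

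By the rule used for these libraries (30 UMIs and 50 CPM or more in whichever library was higher, with a 2-fold ratio), 6 of the 6 class II genes that entered were higher in AT2-like than in AT1-like cells at P60, where 13.6% of 3450 genes were called higher and 40.4% lower. At P15 it was 6 of 6, beside 12.8% of all genes higher and 41.9% lower, and at P3 again 6 of 6, beside 12.5% higher and 36.8% lower. Against AT1-like cells of the same age, H2-Aa was 128.5-fold higher (97.4 to 173), H2-Ab1 78.0-fold (61.3 to 101), H2-Eb1 73.8-fold (52.9 to 106) and Cd74 47.8-fold (44.0 to 51.9). H2-DMa was 15.5-fold higher (10.9 to 22.9) and H2-DMb1 6.83-fold (5.68 to 8.28). The median log2 ratio of the 6 genes was 5.89, against -0.74 over all genes that entered. When library totals were set by a trimmed mean of log ratios in place of the UMI sum, the median over all genes was 0.10 and the split was 24.6% higher to 20.5% lower, and the 6 genes were 10.9-fold (H2-DMb1) to 205-fold (H2-Aa) higher.

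The comparisons at younger ages share the AT2 library with the one at P60, so they are given side by side only. Over AT1-like cells at P15, Cd74 was 23.2-fold higher, H2-Aa 363-fold, H2-Ab1 331-fold, H2-Eb1 491-fold, H2-DMa 49.5-fold and H2-DMb1 13.0-fold. Over those at P3 the ratios were 63.5 for Cd74, 479 for H2-Aa, 448 for H2-Ab1, 369 for H2-Eb1, 42.6 for H2-DMa and 14.4 for H2-DMb1. Ciita was 16.0-fold higher than at P3 (7.40 to 39.3), below the minimum level for a call.

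Shares of cells were ordered likewise. Cd74 had a UMI in 99.9% of AT2-like cells, against 21.1, 42.8 and 34.6% of AT1-like cells in order of age (P3, P15, P60). H2-Aa was found in 92.7% of AT2-like cells, H2-Ab1 in 87.9% and H2-Eb1 in 76.1%, against 0.412 to 5.19% of AT1-like cells for these 3 chains at any age. H2-DMb1 was found in 45.6% and H2-DMa in 30.7% of AT2-like cells, and Ciita in 2.73%. Depth sets part of these shares, so each cell was also thinned to 2000 UMIs, which left 1471 AT2-like cells and left out 30 shallower ones. Of AT1-like cells it left all 2852 at P3, 2461 of 2671 at P15 and 1061 of 1137 at P60. H2-Aa then had a UMI in 77.7% of AT2-like cells, H2-Ab1 in 71.2%, H2-Eb1 in 49.6%, H2-DMb1 in 22.9% and H2-DMa in 13.1%. Cd74 was still found in 99.5% of thinned AT2-like cells, against 9.19, 24.8 and 15.4% of thinned AT1-like cells in order of age.

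**Figure D2:**
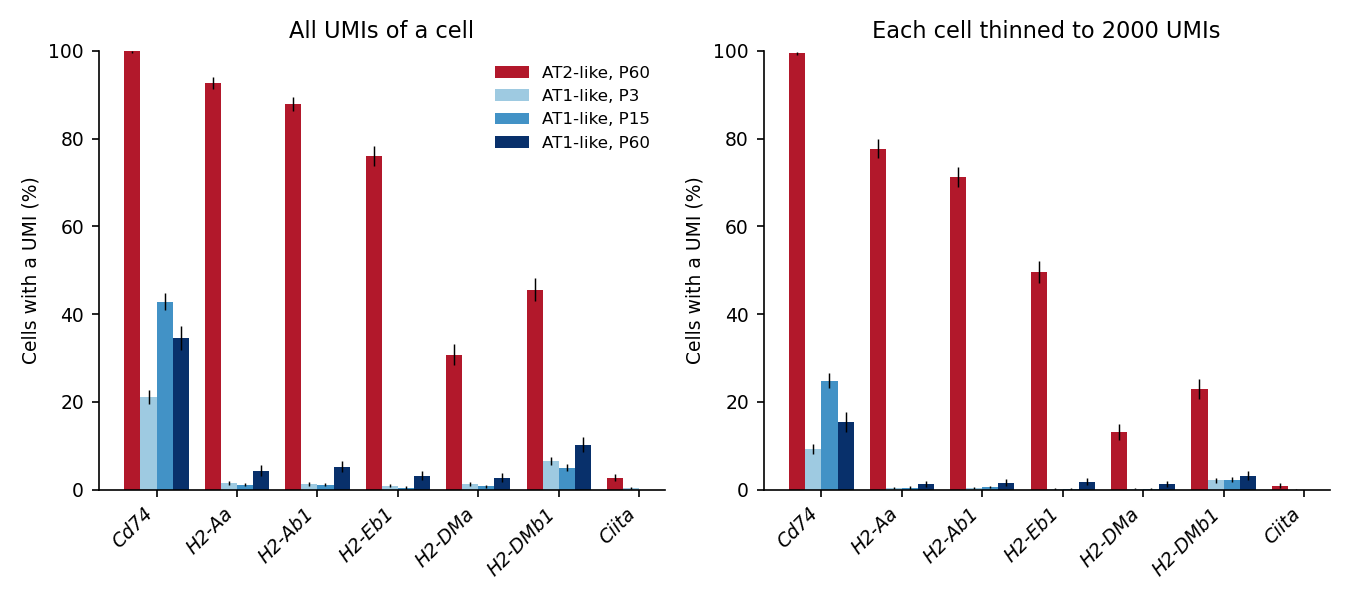
Percentage of AT2-like cells at P60 and of AT1-like cells in order of age (P3, P15, P60) with at least 1 UMI of each class II gene, before (left) and after (right) every cell was thinned to 2000 UMIs; lines are exact 95% binomial intervals. H2-Aa was found in 92.7% of AT2-like cells before thinning and in 77.7% after it, and in at most 4.31% of AT1-like cells.

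Immune cells that slipped through the CD45 gate would carry the same genes, so their markers were read in the AT2-like cells. Ptprc had 2 UMIs, Tyrobp 11 and Cd52 8 in 1501 cells, and 21 cells (1.40%) held any of these 3. Of the 11 general immune markers 2 were listed at 0, and their summed level of 80.9 CPM came mostly from Lcp1 at 74.6 CPM. The macrophage markers C1qa, C1qb, C1qc, Mrc1 and Ear2 were listed at 0, which in this table can be a filled-in value, and the 10 listed summed to 8.81 CPM. Of B cell genes Cd79a and Ms4a1 were listed at 0, although Cd79b stood at 29.0 CPM, and the 3 listed dendritic cell markers summed to 3.34 CPM. In AT1-like cells at P60, 117 cells (10.3%) held Ptprc, Tyrobp or Cd52.

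The class II levels hardly moved when these cells were left out. The 1480 AT2-like cells without Ptprc, Tyrobp or Cd52 held 48954 of the 49687 class II UMIs, so this filter could move a summed level only little. Without the 21 cells, Cd74 stood at 4274 CPM, H2-Aa at 968 CPM, H2-Ab1 at 789 CPM and H2-Eb1 at 389 CPM in AT2-like cells. The ratios over AT1-like cells at P60 were then 47.3 for Cd74, 133 for H2-Aa, 85.9 for H2-Ab1, 68.1 for H2-Eb1, 14.4 for H2-DMa and 7.00 for H2-DMb1. A stricter version, which left out every cell with a UMI of any of 46 immune markers and so kept 833 AT2-like cells, gave a summed level of 6643 CPM, against 6632 CPM in all 1501, and P60 ratios of 6.95 (H2-DMb1) to 145 (H2-Aa). Taking each library whole, without clusters, lowered the P60 ratios to 12.9 for Cd74 and 13.2 for H2-Aa, with the cluster of 53 cells described further on then included in the AT1 library.

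The number of chain UMIs relative to Cd74 differed between AT2-like cells of the AT2 library and AT1-like cells. For every 100 Cd74 UMIs, AT2-like cells held 50.2 UMIs of H2-Aa, H2-Ab1 and H2-Eb1 together (49.2 to 51.1), against 7.18 (5.86 to 8.71) in AT1-like cells at P3, 3.17 (2.51 to 3.95) at P15 and 25.6 (21.3 to 30.6) at P60. H2-DMb1 ran the other way, with 3.08 UMIs per 100 Cd74 UMIs in AT2-like cells (2.89 to 3.28), against 13.6, 5.51 and 21.6 in the AT1-like cells at P3, then P15, then P60. Without cells holding Ptprc, Tyrobp or Cd52 the 3 chains gave 50.2 in AT2-like cells, against 7.29, 2.75 and 24.5 in AT1-like cells in order of age. None of the 3 intervals in AT1-like cells overlapped that of AT2-like cells. The value does not identify a cell type, since a P3 cluster of 65 AT2-like cells, at 34.3 (29.1 to 40.2), overlapped AT1-like cells at P60. Club and ciliated-like cells at P15, at 45.3 (39.7 to 51.5), overlapped AT2-like cells, but that cluster held Sftpc at 42090 CPM. Whether it includes AT2 cells was not tested. At P60 the ratio in AT1-like cells also rests on a Cd74 level that was not above that of fibroblast and mural-like cells of the same library.

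The difference was also seen in shares of cells. Of thinned cells with a Cd74 UMI, 93.7% of AT2-like cells (1372 of 1464) also had a UMI of H2-Aa, H2-Ab1 or H2-Eb1, against 3.82% (10 of 262), 1.64% (10 of 611) and 6.13% (10 of 163) of AT1-like cells in order of age (P3, P15, P60). Since AT2-like cells held more Cd74, cells with 1 to 3 Cd74 UMIs were set apart. Among these, 80.9% of AT2-like cells (153 of 189) had a chain, against 3.20, 1.51 and 6.17% of AT1-like cells in order of age. This does not match Cd74 levels, since such AT2-like cells are low draws from a class with a mean of 8.23 thinned Cd74 UMIs. The shares also depend on the chain level of each class, so they describe the same difference and are no separate support.

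Cells of other types in the same AT1 libraries gave a level to set beside Cd74 in AT1-like cells. At P3, 21.1% of AT1-like cells held a Cd74 UMI at a median of 7294.5 UMIs per cell, against 3 of 50 fibroblast and mural-like cells at 9361.5, and the levels were 67.3 CPM and 6.21 CPM (1.28 to 18.1). At P15 it was 42.8% of AT1-like cells at 4934 UMIs, against 10.9% of 110 fibroblast and mural-like cells at 4752.5 and 11.9% of 42 endothelial-like cells at 3499. The P15 levels were 184 CPM in AT1-like cells, against 87.5 CPM (65.0 to 115) in the fibroblast and mural-like cells, 5 of which held 84.0% of the UMIs, and 27.2 CPM (9.98 to 59.2) in the endothelial-like cells. At P60 it was 34.6% of AT1-like cells at 5691 UMIs, against 25.5% of 55 fibroblast and mural-like cells at 2948. The P60 level of 89.5 CPM (82.5 to 97.0) in AT1-like cells was not above the 116 CPM (73.0 to 176) of those cells, so no Cd74 expression is read from it. The fibroblast and mural-like clusters at P3 and P60 are mixed references, since the endothelial genes Cldn5 and Ramp2 were also among their leading genes. At P60, 5 of the 55 cells also held Ptprc, Tyrobp or Cd52. H2-Aa in AT1-like cells, at 2.67 CPM at P15 and 7.54 CPM at P60, was below the 40.3 and 37.1 CPM of the fibroblast and mural-like cells of those libraries. These references are unsteady. Without cells holding any immune marker, the summed class II level of the P15 reference fell from 178.5 to 27.1 CPM (4 UMIs in 33 cells). AT1-like cells at P15 then stood at 210.8 CPM. The P60 reference rose from 338.8 to 538 CPM (26 UMIs in 22 cells). Sftpc, at 141800 CPM in AT2-like cells, stood at 309, 124 and 219 CPM in the AT1-like cells at P3, then P15, then P60. The part of RNA from other cells in the Cd74 level of AT1-like cells was not tested.

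With age, Cd74 and the chains in AT1-like cells did not move together. Cd74 was 2.74-fold higher at P15 than at P3 (2.57 to 2.92), while the intervals of H2-Aa (0.833 to 2.08), H2-Ab1 and H2-Eb1 included 1. At P60 relative to P15, Cd74 was lower, at a ratio of 0.486 (0.443 to 0.531), and H2-Aa was 2.83-fold (1.81 to 4.45), H2-Ab1 4.25-fold (2.76 to 6.65), H2-Eb1 6.65-fold (3.30 to 14.5) and H2-DMa 3.19-fold (1.78 to 5.81) higher. The share of AT1-like cells with Ptprc, Tyrobp or Cd52 moved with the chains, at 1.05, 1.27 and 10.3% in order of age. Without those cells the chains stood at 24.5 UMIs per 100 Cd74 UMIs at P60, against 2.75 at P15, and the part of free RNA in this difference was not tested.

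**Figure D3:**
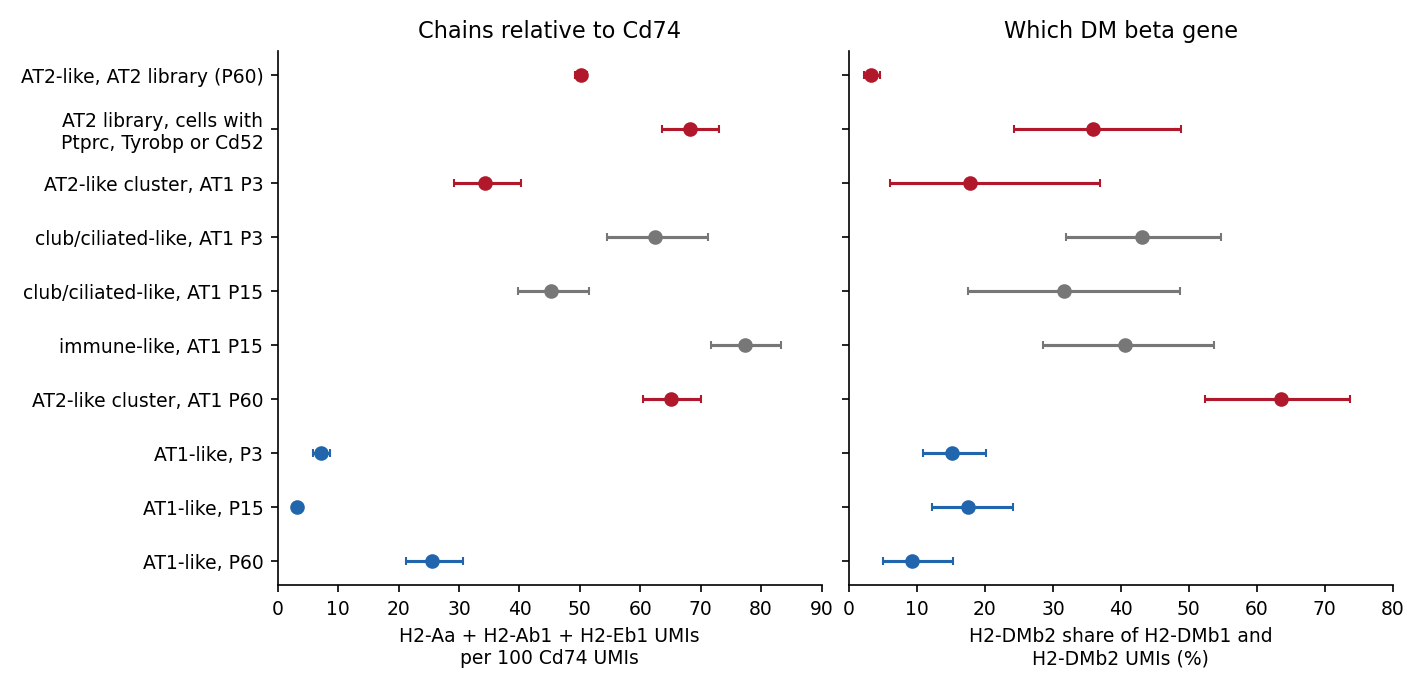
Left, UMIs of H2-Aa, H2-Ab1 and H2-Eb1 per 100 Cd74 UMIs in cell populations of the 4 libraries; right, H2-DMb2 UMIs as a percentage of H2-DMb1 and H2-DMb2 UMIs; bars are exact 95% intervals. AT2-like cells (red, top row) stood at 50.2 and 3.24%, and AT1-like cells (blue) at 3.17 to 25.6 on the left. Red also marks every other row named for AT2. Among these is the cluster of the P60 AT1 library, at 65.0 and 63.5%, where 45 of 53 cells held Ptprc, Tyrobp or Cd52.

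The share of a second DM beta gene, H2-DMb2, was lower in AT2-like cells than in some groups of cells with immune genes. It was chosen after its values had been seen, and reads of H2-DMb1 and H2-DMb2, which are near-identical neighbours, may be split between them in ways that counting cannot settle. In AT2-like cells H2-DMb2 gave 33 of the 1020 UMIs of the pair, or 3.24% (2.24 to 4.51). In the 53 cells of the AT2 library with Ptprc, Tyrobp or Cd52 it gave 23 of 64, or 35.9% (24.3 to 48.9), against 3.57% (2.64 to 4.70) in the other 2040 cells. These 53 cells include 21 AT2-like cells. Without those 21, AT2-like cells still held 33 H2-DMb2 UMIs, of 1008, so none of the 23 came from AT2-like cells. In an unnamed cluster of 188 cells led by S100a8, described further on, leaving out 26 such cells lowered H2-DMb2 from 33 to 10 UMIs. The immune-like cluster of 54 cells in the P15 library had 26 of 64, or 40.6% (28.5 to 53.6). A high share was not limited to cells with immune genes, since the club and ciliated-like cluster at P3, with 1 such cell of 142, had 34 of 79, or 43.0% (31.9 to 54.7). AT1-like cells without immune-gene cells stood at 14.5% (10.2 to 19.6) at P3, 17.65% (12.2 to 24.2) at P15 and 7.63% (3.55 to 14.0) at P60. The P3 cluster of 65 AT2-like cells, with no immune-gene cell, had 5 of 28, or 17.9% (6.06 to 36.9). That interval lay above the one of adult AT2-like cells, but it rests on 28 UMIs from another sort, digest and library, and age was not tested. A low share was not particular to AT2-like cells, since the interval of AT1-like cells at P60 overlapped theirs.

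The AT1 library at P60 held a cluster of 53 cells led by Sftpc, Sftpa1 and Lyz2 but also by S100a8, H2-Aa and Cd74, and 45 of the 53 held Ptprc, Tyrobp or Cd52. Its Cd74 level was 7646 CPM (7301 to 8003), above the 4274 CPM of AT2-like cells of the AT2 library, although 71.7% of its cells held Cd74. The 45 cells with an immune gene had H2-DMb2 in 54 of 78 UMIs of the pair (69.2%), Sftpc at 12880 CPM and Cd74 in 66.7% of cells. The other 8 cells had H2-DMb2 in 0 of 7 UMIs, Sftpc at 116200 CPM, Cd74 at 4922 CPM (4403 to 5485) and H2-Aa at 1370 CPM (1103 to 1682), and each of the 8 held all 4 of Cd74, H2-Aa, H2-Ab1 and H2-Eb1. These 8 cells were picked from the 53 for lacking Ptprc, Tyrobp and Cd52, and 4 of the 8 still held another immune marker. Their median depth was 8272 UMIs, against 4902 UMIs in AT2-like cells of the AT2 library, and depth sets part of the joint detection. The 8 cells come from another sort and digest than the AT2 library. Their Cd74 and H2-Aa levels were above the 4274 and 968 CPM of AT2-like cells there. The part of sort and digest in the levels was not tested.

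Within the AT2 library the summed level differed between clusters made without the class II genes. The AT2-like clusters 2, 3 and 4, of 609, 598 and 294 cells, had 7470, 6281 and 5395 CPM. Cluster 4 was led by Fgg, Lrg1, Dmkn and Mfsd2a. A cluster of 360 cells led by the AT1 genes Hopx, Pdpn, Igfbp2 and Vegfa, which still held Sftpc at 115600 CPM, was left unnamed and had 5263 CPM. A further unnamed cluster of 188 cells, led by S100a8, Mgp, S100a9, Inmt and Tyrobp, stood highest at 10930 CPM, and 26 of its cells held Ptprc, Tyrobp or Cd52.

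**Figure D4:**
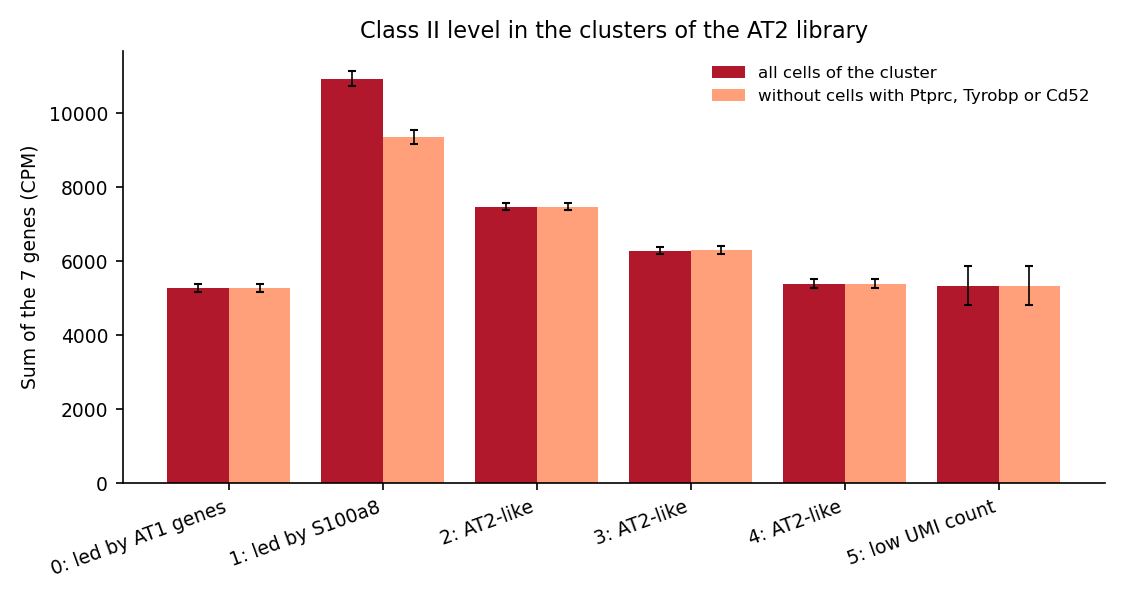
Summed level of the 7 class II genes (CPM) in the 6 clusters of the AT2 library, with all cells and without cells holding Ptprc, Tyrobp or Cd52; bars start at 0 and lines are exact 95% Poisson intervals. The cluster led by S100a8 stood at 10930 CPM with and 9351 CPM without such cells, and the other clusters at 5263 to 7470 CPM.

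The cluster led by S100a8 remained the highest without its 26 immune-gene cells, at 9351 CPM. Against the rest of the library, its Cd74 ratio was 1.67 (1.63 to 1.71) with all cells and 1.48 (1.44 to 1.52) without immune-gene cells on either side, and its H2-Eb1 ratio was 2.12 and 1.54. H2-DMb2 gave 15.5% of its DM beta UMIs (10.9 to 21.1), and 6.13% (2.98 to 11.0) without the immune-gene cells, a value added after the data had been seen. The 3 AT2-like clusters stood at 1.62 to 4.25% with all cells and at 1.64 to 4.25% without, and all 3 of their intervals then overlapped that of the cluster led by S100a8. The cluster led by AT1 genes had a Cd74 ratio of 0.727 (0.707 to 0.748) with all cells and 0.745 without immune-gene cells. The balance of chains to Cd74 varied little between the clusters, from 47.6 chain UMIs per 100 Cd74 UMIs in cluster 4 to 55.0 in the cluster led by S100a8, which stood at 49.9 without its immune-gene cells.

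Class II genes were detected together in AT2-like cells slightly more often than their single shares give. At 2000 UMIs per cell, Cd74, H2-Aa, H2-Ab1 and H2-Eb1 were all found in 484 of 1471 cells, or 32.9% (30.5 to 35.4), against 27.3% from the product of the 4 shares, and none of the 4 was found in 2 cells. H2-Aa and H2-Ab1, the paired chains of I-A, were found together in 58.7% of cells, against a product of 55.4%. H2-Eb1 and H2-DMa were found together in 7.82%, against 6.51%. For the 5 pairs with H2-DMb1 the share found together was 0.973 to 1.02 times the product. Pairs of low genes moved with the draw of the thinning: in another draw H2-Eb1 and H2-DMa were found together in 7.48%, against 6.81%, and the pairs with H2-DMb1 stood at 0.95 to 1.12 times the product, or at 1.02 to 1.3 times with 1000 UMIs per cell. Counting the 6 genes without Ciita, 5.10% of cells held only 1 of them and 1.29% held all 6, against products of 2.23% and 0.822%. Leaving out cells with Ptprc, Tyrobp or Cd52 gave 33.3% for the 4 genes, and leaving out cells with any immune marker gave 32.4%.

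**Figure D5:**
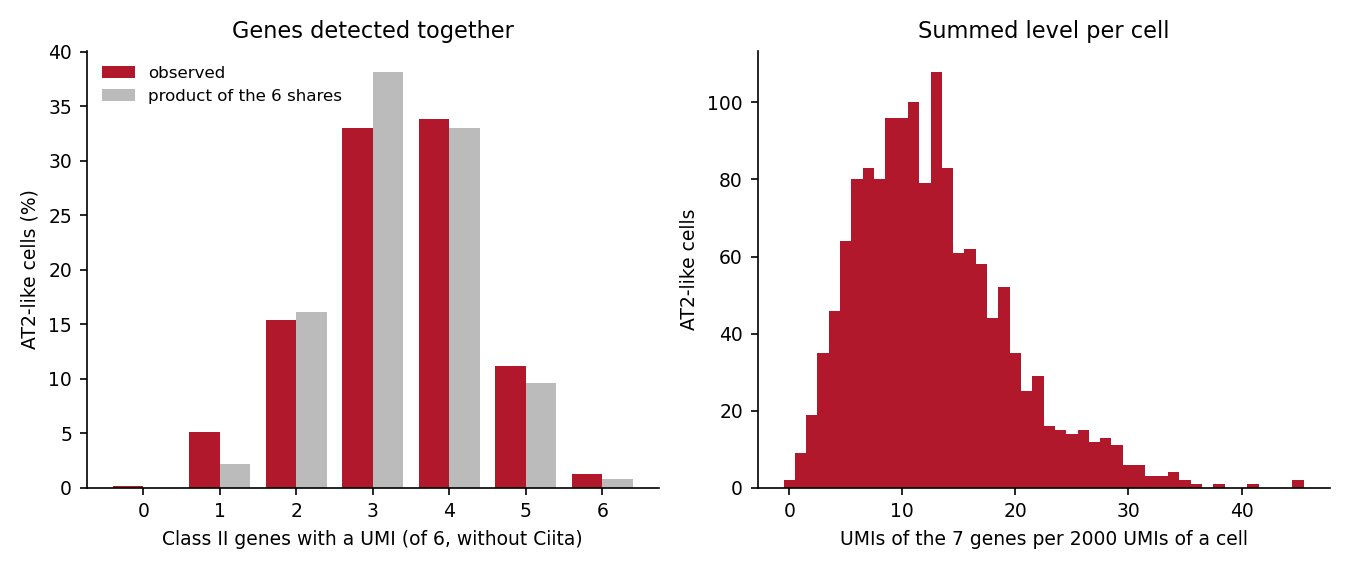
Left, percentage of 1471 AT2-like cells, thinned to 2000 UMIs, with a UMI of 0 to 6 class II genes, beside the percentage that the product of the 6 single shares gives; right, number of cells by the summed thinned UMIs of the 7 genes. Cells with 1 gene made up 5.10%, against a product of 2.23%, and the summed level had a single peak around its median of 12 UMIs.

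Levels varied from cell to cell along a continuous range. The thinned sum of the 7 genes had a median of 12 UMIs per cell, with 5 at the 10th and 22 at the 90th percentile and a highest value of 45. Cd74 alone had a mean of 8.23 and an SD of 4.53 thinned UMIs. Its variance was 2.49 times its mean, against a median of 1.83 over the 12 genes of similar mean, of which 1 was higher. H2-Aa (1.46) and H2-Ab1 (1.48) each had 3 genes above them among 47 and 52 genes of similar mean, whose medians were 1.12 and 1.11. For H2-DMa (1.04) and H2-DMb1 (1.05) the ratio was near that of a count without added spread, which is 1. On log(UMI + 1), Cd74 had r = 0.38 with H2-Aa, 0.38 with H2-Ab1 and 0.25 with H2-Eb1 over the 1471 cells, and H2-DMb1 had r of -0.01 to 0.08 with the other genes. The cells share 1 library and 1 depth, and in sparse counts r is small for low genes.

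No gene followed the class II sum closely from cell to cell, and the 10 with the highest r reached 0.11 to 0.26. Over the 1471 cells and 3630 ranked genes, r was 0.26 for the surfactant protein gene Sftpa1, 0.18 for Sftpc, 0.16 for the endosomal protease gene Ctsh, 0.14 for Wfdc2, 0.14 for the ubiquitin gene Ubb and 0.13 for Sftpd. Fos, the surfactant-processing protease gene Napsa, the lysozyme gene Lyz2 and the class I gene H2-D1 followed at 0.11 to 0.12. At the other end stood the mitochondrial genes mt-Co1 at -0.23 and mt-Nd2 at -0.20 and the fatty acid desaturase gene Scd1 at -0.22, each larger in size than the value of Sftpc. All of these values are a description and are too weak to single any gene out.

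Ciita could be followed in few cells only. The 41 AT2-like cells with a Ciita UMI had a level of the other 6 genes of 7251 CPM, with a median of 6740 CPM per cell (25th to 75th percentile 5229 to 8496). The 1460 cells without one had 6607 CPM, with a median of 5951 CPM per cell (4161 to 8285), and median depths were 5184 and 4890 UMIs. The ranges overlapped over most of their width.

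The factors known to act with Ciita, and the interferon gamma pathway that induces it in many cell types, were mostly below the minimum level. Of 13 listed genes of the transcription list, 3 passed at P60, none was called higher and 2 were called lower, at a median log2 ratio of -1.04, against -0.74 over all genes. Of all genes 13.6% were called higher and 40.4% lower, so nothing can be read about the list from 3 genes. Ifngr1, a receptor chain of interferon gamma, stood at 28.0 CPM in AT2-like cells, against 57.6 CPM in AT1-like cells. The kinase genes of that receptor were split, Jak1 at 44.9 CPM in AT2-like cells, against 62.4 CPM in AT1-like cells, and Jak2 at 20.2 CPM, against 9.64 CPM and below the minimum level. Creb1, a factor at class II promoters, stood at 21.5 CPM, against 30.4 CPM. Under the trimmed mean scaling 1 of the 3 was called lower, beside 20.5% of all genes, and the ratios of Jak1 and Creb1 were above 1. Named after their values had been seen, the second receptor chain Ifngr2 stood at 14.3 CPM in AT2-like cells, against 59.1 CPM in AT1-like cells, and Rfx5, a subunit of the complex at the X box, at 10.1 CPM, against 8.74 CPM.

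Of the 16 genes on the list of interferon-induced genes 13 were listed in both P60 libraries and 2 passed the minimum level, which is too few to describe the list. Both were called lower in AT2-like cells under either scaling, beside 40.4% of all genes called lower at P60, or 20.5% under the trimmed mean scaling. Bst2, which tethers budding viruses, stood at 22.7 CPM in AT2-like cells, against 117 CPM in AT1-like cells at P60, and Ifit3 at 1.07 CPM, against 175 CPM.

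Genes of the endosomal pathway that loads class II were split. Of 12 that passed, 3 were called higher in AT2-like cells at P60 and 4 lower, at a median log2 ratio of -0.55, beside 13.6% of all genes higher and 40.4% lower. Under the trimmed mean scaling it was 3 higher and 2 lower of 13, at a median of 0.35, beside 24.6% and 20.5% of all genes. With so few genes these counts are a description of the genes named and not of the pathway. Ctsh, which also processes surfactant protein, stood at 991 CPM in AT2-like cells, against 150.2 CPM in AT1-like cells, a ratio of 6.59 (6.17 to 7.05). The cathepsin inhibitor gene Cst3 stood at 482 CPM in AT2-like cells, against 582 CPM in AT1-like cells, the lysosomal membrane gene Lamp1 at 354 CPM, against 616 CPM, and the cathepsin B gene Ctsb at 235 CPM, against 242 CPM. None of these 3 was 2-fold apart.

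Other genes of that pathway are named because the calls or their known part in loading single them out after their values were seen. Ifi30, the thiol reductase that opens disulfides of antigens, was called higher, at 105.4 CPM in AT2-like cells, against 28.9 CPM in AT1-like cells, as was the protease gene Ctsz, at 202 CPM, against 71.7 CPM. Lower were Ctsl, a protease of the invariant chain in thymic epithelium, at 65.9 CPM in AT2-like cells, against 347 CPM in AT1-like cells, Lgmn at 75.7 CPM, against 232 CPM, Sppl2a at 28.8 CPM, against 68.6 CPM, and Psap at 34.0 CPM, against 417 CPM. Ctss, the protease that trims Cd74 in dendritic cells and B cells, had 3 UMIs in AT2-like cells and 3 in AT1-like cells.

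Cd74 is also known as a surface receptor for the cytokines Mif and Ddt, with Cd44 as a co-receptor. Cd44 stood at 99.4 CPM in AT2-like cells, against 1.21 CPM (8 UMIs) in AT1-like cells at P60, a ratio of 82.5 (41.6 to 192). Ddt was called higher at a ratio of 2.14 (1.94 to 2.35), and Mif had a ratio of 1.51 (1.39 to 1.64), below the 2-fold limit. Of all genes 13.6% were called higher. Under the trimmed mean scaling all 3 were called higher, beside 24.6% of all genes.

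Few genes of T cell costimulation, which accompanies class II on professional presenting cells, passed. Of the 14 genes on the list of costimulation and inhibition, 7 were listed in both P60 libraries and 2 passed, 1 called higher and 1 lower, beside 13.6% and 40.4% of all genes. Lgals9 was called higher, at 50.7 CPM in AT2-like cells, against 3.77 CPM in AT1-like cells, and the adhesion gene Icam1, which is also an AT1 marker, was called lower, at 147 CPM, against 1337 CPM. Cd274, the gene of PD-L1, named after its values had been seen, was listed at 0 in the AT2 library.

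Class I genes, which most cells carry, were mostly less than 2-fold apart. Of 7 that passed at P60, none was called higher and 1 lower, at a median log2 ratio of -0.23, beside 13.6% of all genes higher and 40.4% lower. H2-K1, a heavy chain gene, stood at 485 CPM in AT2-like cells, against 285 CPM in AT1-like cells, and H2-D1, another, at 403 CPM, against 567 CPM. B2m, the common light chain, stood at 375 CPM in AT2-like cells, against 1286 CPM in AT1-like cells, and the chaperone gene Calr at 349 CPM, against 295 CPM. With the trimmed mean scaling 2 of 8 class I genes were called higher, beside 24.6% of all genes, the median was 0.53 and the ratio of H2-D1 was above 1.

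Of the other class II genes, H2-DMb2 stood at 4.40 CPM in AT2-like cells. H2-Oa and H2-Ob, the DO genes that restrain DM and are best known from B cells, were listed at 0 in the AT2 library. H2-Ea, whose product pairs with that of H2-Eb1, was not among the listed genes, and it is known to be silent in C57BL6 mice.

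A cluster of 65 AT2-like cells in the AT1 library at P3 is called the newborn cluster here. It was led by Sftpc, Sftpa1 and Lyz1, had a median of 16685 UMIs per cell and held no cell with Ptprc, Tyrobp or Cd52. Its AT1 markers summed to 22450 CPM, against 44120 to 50140 CPM in the AT1-like clusters of that library. No doublet caller was run, and the part of AT1 RNA or of mixed cells in its class II levels was not tested. Adult AT2-like cells stood higher in Cd74, at 4274 CPM, against 544 CPM in the newborn cluster, a ratio of 7.86 (7.25 to 8.53). H2-Aa stood at 968 CPM in adult cells, against 131 CPM in the newborn cluster (7.39; 6.26 to 8.78). H2-Ab1 stood at 788 CPM, against 32.8 CPM (24.1; 17.3 to 34.4), and H2-Eb1 at 389 CPM, against 22.7 CPM (17.1; 11.6 to 26.5). Sftpc differed by 1.81-fold (1.80 to 1.83). The DM genes differed by 3.74-fold (H2-DMa) and 6.29-fold (H2-DMb1), and Ciita had 3 UMIs in the newborn cluster, at a ratio of 2.05 (0.656 to 10.4).

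The newborn cluster also had another balance of chains. Per 100 Cd74 UMIs it held 24.1 UMIs of H2-Aa (19.9 to 28.9), 6.02 of H2-Ab1 (4.18 to 8.43) and 4.18 of H2-Eb1 (2.68 to 6.23), and the 3 chains together gave 34.3 (29.1 to 40.2), against 50.2 in adult AT2-like cells. Cd74 was found in 84.6% of the newborn cells, H2-Aa in 55.4% and H2-Ab1 in 21.5%, and 5 cells held 58.3% of the H2-Ab1 UMIs. Age cannot be told apart from sort, digest and library in this comparison, since the newborn cells were caught in the AT1 gate and were deeper.

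Club and ciliated-like cells were the other epithelium with class II. The cluster of 142 cells at P3 had Cd74 at 314 CPM, H2-Aa at 104 CPM, H2-Ab1 at 64.5 CPM and H2-Eb1 at 26.8 CPM, with 62.4 chain UMIs per 100 Cd74 UMIs (54.5 to 71.3). Cd74 was found in 65.5% of them. The cluster of 63 cells at P15, which was also led by Sftpa1, Sftpb and Sftpc, had Cd74 at 1555 CPM and H2-Aa at 462 CPM. In the immune-like cluster at P15, Cd74 stood at 6498 CPM but was found in 16 of 54 cells, 5 of which held 90.5% of it, and the chains gave 77.3 UMIs per 100 Cd74 UMIs (71.7 to 83.2). AT2-like cells had a lower Cd74 level than that small immune cluster, but held it in 99.9% of cells.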

How the data were processed

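The deposited tables hold natural log values. Judging by the values, the authors scaled each cell's UMIs to a sum of 10000 and took the logarithm after adding 1. Cell Ranger 1.3.1 and Seurat 2.0.0 and the builds mm10 and hg19 are named per the submitters' processing notes (what hg19 served for is not given in the sources). UMIs were recovered from the logarithms, and 100% came out whole within 0.05. The AT2 table lists 1068 genes at 0 in every cell, which may have been filled in, so such genes got no ratio.

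The members and lists were chosen with earlier results of these data known. Each library was clustered alone without the 7 genes (Scanpy 1.11.5, leidenalg 0.10.2, igraph 0.11.9; 2000 variable genes, 20 components, 15 neighbours, Leiden resolution 0.5), and clusters with more markers of another class than their own among their 10 leading genes stayed unnamed. No doublet caller was run, and the 2% of cells with most UMIs were left out as an alternative. Levels have exact Poisson, shares Clopper-Pearson and ratios exact conditional Poisson intervals at 95%, computed with scipy 1.17.1. Ratios were called at 2-fold with at least 50 CPM and 30 UMIs. Named beside the 7 genes were members of the lists at 20 CPM or more, up to 4 per list, and the 10 genes most like the class II sum, with exceptions stated. The scripts were tested on simulated counts. Protein sequences were not used here.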

Additional observations from a re-analysis of the deposited data

How the results depend on the processing

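Over 10 settings (all cells, either immune filter, 3 other library totals, no cells of highest UMI count, Leiden resolutions 0.25 and 1, and the one reported), the 6 genes that passed were called higher in AT2-like cells at every age, and no ratio reversed. Without a minimum level Ciita joined them at P3, for 7 genes. Of 171 alternative log2 ratios, 124 stayed within the counting interval and 47 moved, all between 2.48 and 9.45. The P60 ratio of Cd74 ran from 12.9 (all cells) to 76.2 (trimmed mean of log ratios) and that of H2-DMb1 from 5.58 to 10.9. Depth sets joint detection: at 1000 UMIs per cell the 4 genes were found together in 11.2% of cells and H2-Aa in 58.5%, and the variance of Cd74 was 1.77 times its mean. With all cells of the library that ratio was 4.53. Of the 10 genes most like the class II sum, 5 to 9 were shared with each alternative. No paired analysis was possible because each group has 1 library.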
